A study of Mus musculus with 4 samples.

Results

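Mouse chromosome 15 was examined in a distal part, the last 30 Mb before its last probe, and a proximal part, the rest of the chromosome. The members were all probes outside control spots that the array design places on chromosome 15 of build mm9. They numbered 2160 of 54677 probes in all, printed as 2374 spots, and 2157 gave a value on all 4 arrays, 1141 distal and 1016 proximal. Genomic DNA of 4 liver cell samples labelled TAK1LPC-KO_RIP3-_- was measured by array comparative genomic hybridisation, in which 2 DNAs carrying different dyes compete for the same probes. The samples carried Cy5. A pool of DNA from 4 normal livers, labelled with Cy3, is the only control, so that the spread between normal livers is left out of every test. TAK1 is a kinase of inflammatory signalling and RIP3 a kinase of necroptosis, and both alleles are shared by all 4 samples, so no effect of either can be read from these arrays. The labels give no age, strain, sex or treatment, name no promoter for the deletion, and do not say whether the samples came from separate animals, so the p-values rest on a spread that may be technical. DNA came from formalin-fixed sections and 250 ng was labelled. No dye swap was made, and a probe's dye effect stays in its ratio.

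In such an experiment a stretch of chromosome lost from some cells lowers the ratio of all its probes together, and a gained stretch raises it. Tumours of mouse and human liver often carry such changes of large parts of chromosomes. Chromosome 15 holds Myc, a transcription factor that drives growth, in its gene-poor proximal part, and dense families of genes, among them the Ly6 surface proteins, the Cyp2d enzymes, the type 2 keratins and the Hoxc transcription factors, in its distal part. Ratios of formalin-fixed DNA can also follow base composition and probe density, and these were therefore measured beside each result.

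The probes at the border of the parts and at both ends of the range are shown first, because the results turn on where the level changes and on how far single probes depart from it. They were read from the scanner files, lie on mm9 chromosome 15 and are written in the direction in which the files print them; no strand is given with them. The extremes were taken among probes that were well above background in both channels and had 1 sign on all 4 arrays, and weaker probes reached further from 0 in places. Capitals mark G and C, since base composition moves with the result.
Dennd3, last probe before the change of level, at 73367423 to 73367482: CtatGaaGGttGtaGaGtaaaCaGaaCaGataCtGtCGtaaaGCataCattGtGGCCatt
Dennd3, first probe after it, at 73375365 to 73375413: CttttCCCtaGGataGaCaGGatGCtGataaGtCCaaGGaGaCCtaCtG
Dennd3, first probe of the last 30 Mb, at 73402565 to 73402624: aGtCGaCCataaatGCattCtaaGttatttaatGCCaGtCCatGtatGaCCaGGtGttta
Kdelr3, lowest such distal probe, at 79347328 to 79347381: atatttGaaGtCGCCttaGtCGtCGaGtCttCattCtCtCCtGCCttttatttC
Cyp2d9, highest such distal probe, at 82287210 to 82287266: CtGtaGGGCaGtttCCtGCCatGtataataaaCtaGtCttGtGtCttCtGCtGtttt
Zfpm2, lowest such proximal probe, at 40764101 to 40764160: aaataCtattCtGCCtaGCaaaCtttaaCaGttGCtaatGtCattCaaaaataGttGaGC
C9, highest such proximal probe, at 6433029 to 6433088: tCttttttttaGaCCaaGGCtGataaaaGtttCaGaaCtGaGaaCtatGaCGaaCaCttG
Myc, its only probe, at 61818043 to 61818102: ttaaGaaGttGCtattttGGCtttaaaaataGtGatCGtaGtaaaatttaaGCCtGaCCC

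The values are log2 ratios of the sample over the pool, centred on each array at the median of the 52385 autosomal probes used, so 0 is the level of the typical autosomal probe. The spread from probe to probe that the scanner software reports was 0.38 to 0.42, and its signal to noise ran from 11.1 to 14.1 in the sample channel and from 18.9 to 24.9 in the pool channel. For comparison, the 2172 probes of the X chromosome had a median of -0.86 ± 0.02 (SD, n = 4 arrays). The labels give no sex, so the copy ratio behind this median is not known. Over the 2157 probes of chromosome 15 the correlation between 2 arrays was 0.62 to 0.74, a description in which all arrays share the pool and the probes.

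The distal part lay below the level of the typical autosomal probe on every array and the proximal part lay near that level. The distal median was -0.16, -0.17, -0.17 and -0.17 on replicates 1 to 4, a mean of -0.17 ± 0.01 (SD, n = 4). The proximal median was 0.02, 0.04, 0.02 and 0.0008, a mean of 0.02 ± 0.02. The values of the parts did not overlap, and the distal values lay within 0.02 of each other. Lack of overlap was not particular to chromosome 15. Chromosomes 2, 3, 4, 5, 8, 9, 11, 17, 18 and 19 had it too, so it was found on most of the 19 autosomes. The parts of chromosomes 1, 6, 7, 10, 12, 13, 14 and 16 overlapped. By limma, with Benjamini-Hochberg adjustment over the 38 parts of the 19 autosomes, the adjusted p was 3.91e-08 for the distal and 0.0365 for the proximal median. Of those 38 parts 44.7% were called lower and 36.8% higher, so being called was common, and the distal part of chromosome 15 had the lowest median of all. The call of the proximal part was lost in limma without replicate 1 (0.020, adjusted p = 0.12), without replicate 2 (0.014, adjusted p = 0.19) and without replicate 3 (0.022, adjusted p = 0.0569), and after centring on the mode of the autosomal probes its median was -0.0073. With 4 arrays the exact two-sided sign-flip permutation test cannot go below 0.125, which it gave for both medians.

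Within an array the difference of the parts does not depend on the centring. Distal minus proximal was -0.18, -0.22, -0.18 and -0.17 on replicates 1 to 4, a mean of -0.19 ± 0.02 (SD, n = 4; limma adjusted p = 7.74e-28 over 19 autosomes). This was the most negative of the 19 autosomes cut in the same way, followed by chromosome 4 at -0.15 ± 0.01, chromosome 2 at -0.12 ± 0.02 and chromosome 11 at -0.10 ± 0.01. Among the 19, 52.6% were called lower distally. The fit estimated 1 common spread for all autosomes, a standard error of 0.0087 each, and the length of 30 Mb follows an earlier segmentation of these arrays, so the small p is not independent evidence for the border. With the last 20 Mb in place of 30 Mb the difference was -0.08 ± 0.02 and only the sixth lowest of the 19, and with 25 Mb it was -0.12 ± 0.02.

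The arrays were run on 2 slides, replicates 1 and 2 on the first and replicates 3 and 4 on the second. The distal median averaged -0.17 on the second slide and -0.17 on the first, a difference of -0.0017 (limma adjusted p = 0.869). The proximal median averaged 0.01 on the second slide and 0.03 on the first (limma adjusted p = 0.098). Distal minus proximal averaged -0.18 on the second slide and -0.20 on the first (limma adjusted p = 0.317).

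The shift was carried by many probes and was small beside the scatter of single probes. Averaged over the arrays, the middle 50% of distal probes ran from -0.42 to 0.08, against -0.22 to 0.24 for proximal probes. The share of probes below 0 on all 4 arrays was 43.5% distally, 23.4% proximally and 26.7% over all autosomes. The share above 0 on all 4 arrays was 14.5% distally, 28.0% proximally and 26.5% over all autosomes. The SD between probes was 0.38 in the distal and 0.41 in the proximal part, against 0.40 over the autosomes. The Kdelr3 probe, in a gene for a receptor that returns proteins to the endoplasmic reticulum, averaged -1.36 ± 0.08, and the Zfpm2 probe, in a gene for a cofactor of GATA factors, -1.46 ± 0.19, so probes far below 0 occurred in both parts.

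Along the chromosome the level fell close to 73 Mb. In bins of 10 Mb the medians between 0 and 70 Mb ranged from -0.03 to 0.12. The bin from 70 to 80 Mb then stood at -0.25, -0.27, -0.26 and -0.23 on replicates 1 to 4, a mean of -0.25 ± 0.02, the lowest of 255 autosomal bins (limma adjusted p = 2.47e-09). The bins from 80, 90 and 100 Mb onward had -0.14 ± 0.01, -0.11 ± 0.02 and -0.15 ± 0.02. All 4 distal bins were called lower, against 31.8% of all bins, and 2 proximal bins, from 0 to 10 Mb at 0.07 ± 0.01 and from 40 to 50 Mb at 0.12 ± 0.02, were called higher, against 41.2%. The other 5 were not called. With a further limit of 0.15 on the size, the bin from 70 to 80 Mb alone was called, against 5.1% of all bins called lower.

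The distal part was not uniform. Of its 30 bins of 1 Mb from 74 Mb onward, 21 were called lower, 1 was called higher and 26 lay below 0, where 18.9% of all autosomal bins of this size were called lower and 26.4% higher. The lowest were 74 to 75 Mb at -0.35 ± 0.07, with members of the Ly6 family, and 76 to 77 Mb at -0.34 ± 0.04. The bin from 82 to 83 Mb, with the Cyp2d genes, had -0.03 ± 0.04 and was not called, and that from 87 to 88 Mb had 0.14 ± 0.12 from 10 probes. Between 90 and 95 Mb the 5-Mb median was -0.02 ± 0.06 and not called, although it was called lower on both sides of this stretch, at -0.12 ± 0.03 and -0.16 ± 0.02. Of all 5-Mb bins 24.8% were called lower and 35.7% higher. Of 60 proximal 1-Mb bins up to 73 Mb, 10 were called lower and 11 higher. Single bins there fell as low as the distal ones, namely 30 to 31 Mb at -0.38 ± 0.06 from 5 probes and 63 to 64 Mb at -0.34 ± 0.11 from 11 probes.

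**Figure D1:**
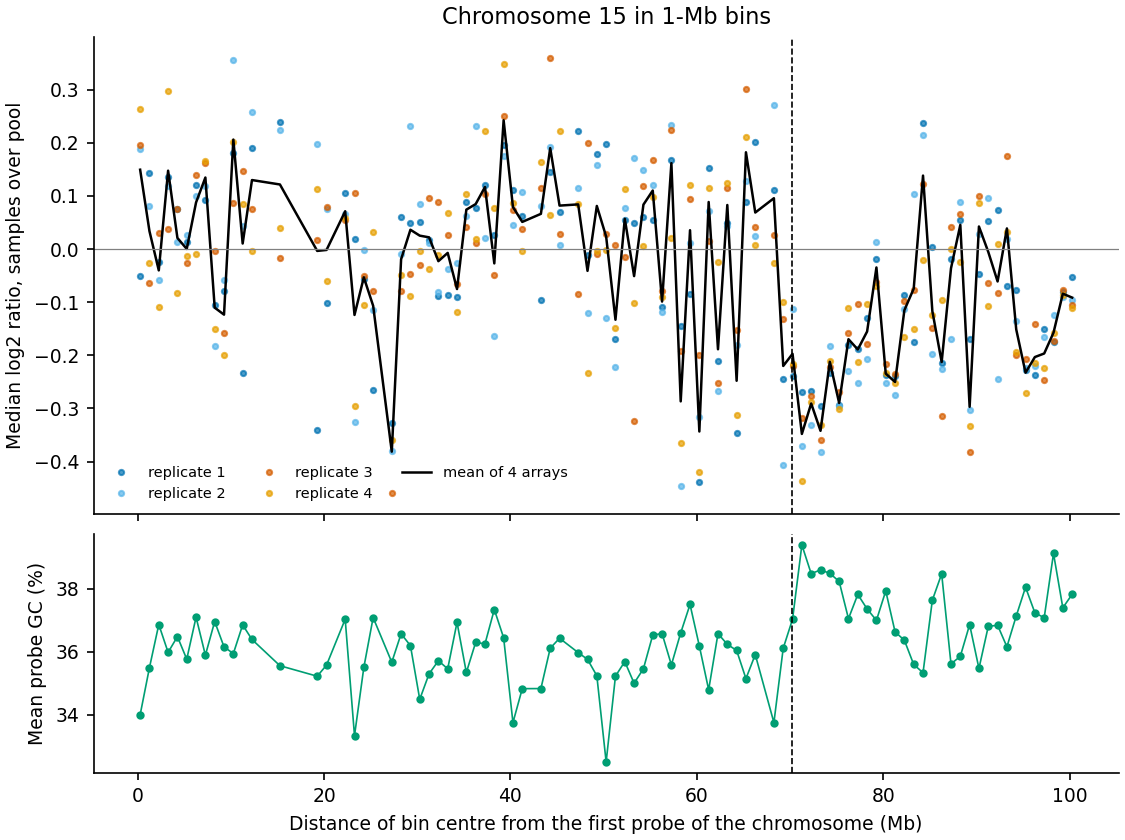
Median log2 ratio of samples over pool in 1-Mb bins with at least 5 probes (upper panel, 91 bins; points are the 4 arrays, the line their mean) and mean GC content of the probes in percent (lower panel), against the distance from the first probe in Mb. The dashed line marks the first probe of the last 30 Mb, beyond which 26 of 30 bins lie below 0 and probe GC is higher.

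A single change of level was fitted to the probes of each array by least squares, as a description with no test. It fell at 73375365 on replicates 1, 3 and 4 and on their mean with replicate 2, inside Dennd3, which encodes an activator of Rab GTPases. On replicate 2 it fell at 73475039. The last Dennd3 probe before the change had 0.24, 0.47, 0.19 and -0.02 on replicates 1 to 4, and the next had -0.32, -0.21, -0.58 and -0.27. All 4 arrays were lower at the second of these probes. The fit picked this pair from these same arrays, so the drop between them is largely fixed by that choice and is no support for the border. The second probe also had a GC of 46.9%, against 38.3% for the first. The first probe of the last 30 Mb was below 0 on all arrays too, at -0.26 ± 0.15. The position found on the first slide gave a change of -0.18 and -0.17 on the replicates of the second, and the position found on the second gave -0.18 and -0.22 on those of the first. Both slides share the pool, the probes and their base composition, so an effect of any of these would recur on both. The change took up 3.8% to 5.2% of the variance between probes on an array.

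The parts also differed in base composition and probe density. The distal part had 38 probes per Mb, and the proximal 14.5. Mean probe GC was 37.6% distally and 35.8% proximally, and 86.0% of distal probes carried a gene name, against 74.6% of proximal ones. Fitted in the same way, the probe GC content itself changed at 73220244 and the number of probes within 0.5 Mb at 73140278, both in Ptk2, about where the ratio changed. Across 1-Mb bins the ratio and the log2 number of probes had a correlation of -0.53 over 30 distal bins, 0.17 over 60 proximal bins and -0.23 over 2110 autosomal bins. The ratio and mean probe GC had a correlation of -0.76 over 30 distal bins, -0.13 over 60 proximal bins and -0.26 over 2110 autosomal bins. These are descriptions over bins that share arrays and probes. Signal strength differed as well. Relative to the autosomal median, the samples' log2 intensity was higher distally by 0.29 ± 0.02 than proximally, and the pool's by 0.48 ± 0.02. Of distal probes 86.8% were well above background in both channels on all arrays, against 81.6% of proximal probes, and over such probes alone the difference of the parts was -0.19 ± 0.02.

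The size of the difference depended on how base composition was treated. After regression over all autosomal probes on probe GC and on the mean GC of probes within 0.5 Mb, the distal median was -0.09 ± 0.01, the proximal -0.01 ± 0.01 and their difference -0.08 ± 0.02 (limma adjusted p = 9.61e-09). The difference then ranked second of the 19 autosomes, behind chromosome 4 at -0.10 ± 0.004, and the distal median was the fifth lowest of 38, with distal chromosome 2 lowest at -0.13. The change point no longer lay near 73 Mb and moved to between 10964607 and 25947757 on the 4 arrays. With probe GC alone the difference was -0.15 ± 0.02, and with probe density it was -0.12 ± 0.01. All 4 distal bins of 10 Mb stayed below 0 after the regional correction, at -0.12, -0.08, -0.09 and -0.04, and all 4 were still called. They were 4 of 6 bins of the chromosome called lower, where 35.7% of all bins were called lower, and 1 bin was called higher, where 34.9% of all were. The part that base composition and density have in the result was not tested beyond these values.

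**Figure D2:**
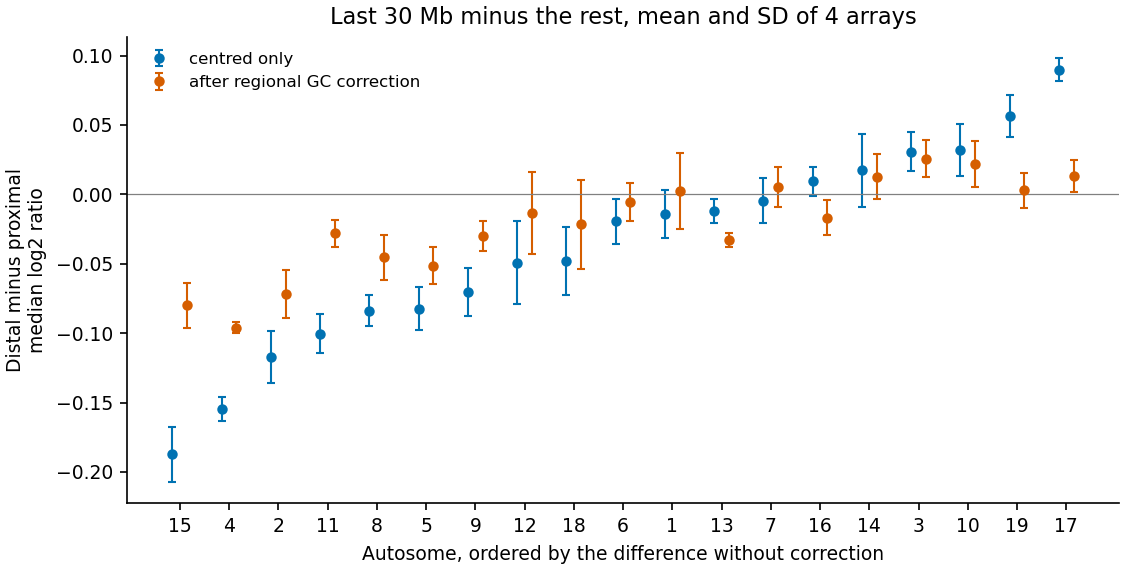
Distal minus proximal median log2 ratio for each of the 19 autosomes (points are the mean and bars the SD of 4 arrays), centred only (blue) and after the regional GC correction (orange). Chromosome 15 is lowest at -0.19 without the correction and lies at -0.08 with it, behind chromosome 4 at -0.10.

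Within subsets of probes the distal side was lower, by different amounts. Most subsets limited base composition only loosely. Probe GC ran from 36.2% to 38.3% in its middle class but from 6.7% to 35.6% in its lowest. Gene name and the number of neighbours did not limit it. In the lowest, middle and highest classes of probe GC the difference was -0.12 ± 0.02, -0.14 ± 0.03 and -0.21 ± 0.09 (SD, n = 4), the last over only 77 proximal probes. It was -0.20 ± 0.02 for probes with a gene name and -0.14 ± 0.05 for those without. Among probes with a regional GC of 36 to 37% it was -0.08 ± 0.04, and among probes with 15 to 29 neighbours within 0.5 Mb it was -0.09 ± 0.02. The difference was below 0 on each of the 4 arrays in every one of these subsets, which were chosen after the data were seen.

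**Figure D3:**
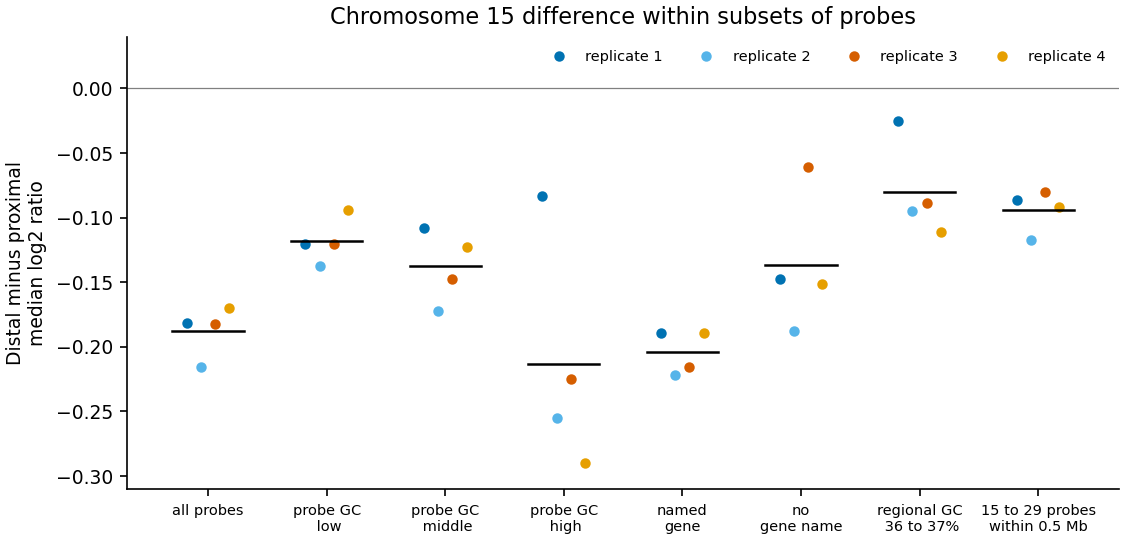
Distal minus proximal median log2 ratio of chromosome 15 on each array (points) and its mean (bar), for all probes and for 7 subsets of probes. All points lie below 0, and the means run from -0.21 for the highest class of probe GC to -0.08 for a regional GC of 36 to 37%.

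The 3 autosomal parts nearest to distal chromosome 15 in probe GC did not share 1 level. Distal chromosome 11, at a probe GC of 37.4%, had -0.16 ± 0.02, and distal chromosome 15 minus it was -0.01 ± 0.02 (exact sign-flip permutation test, two-sided p = 0.625 before and after adjustment over the 3 pairs). Distal chromosome 4, at 37.1%, had -0.02 ± 0.02, and distal chromosome 15 was lower on all 4 arrays, with a difference of -0.15 ± 0.02. Proximal chromosome 17, at 37.03%, had -0.05 ± 0.02, and distal chromosome 15 was lower on all 4 arrays, with a difference of -0.12 ± 0.02. For these last pairs the exact sign-flip permutation p was 0.125, the smallest that 4 arrays allow, and 0.188 after adjustment. These are comparisons of level, and the proximal part of chromosome 4 stood at 0.14 ± 0.02. Within their own chromosomes, distal minus proximal was -0.10 ± 0.01 on chromosome 11, -0.15 ± 0.01 on chromosome 4 and 0.09 ± 0.01 on chromosome 17.

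At the level of genes, 813 gene names of chromosome 15 were tested within the fit over 20422 autosomal genes, each as the mean of its probes. A gene was called at a limma adjusted p under 0.05 and a mean at least 0.25 from 0. Of 525 distal genes 206, or 39.2%, were lower and 34, or 6.48%, were higher. Of 288 proximal genes 42, or 14.6%, were lower and 39, or 13.5%, higher. Over all autosomal genes 19.3% were called lower and 16.2% higher, so the proximal counts were somewhat under this background and the distal count of lower genes was above it. The median gene stood at -0.19 distally and 0.02 proximally, against -0.01 over all autosomal genes. After the regional GC correction 132 distal genes, or 25.1%, were called lower, against a background of 16.3%, and 50, or 9.52%, were called higher, against 15.7%.

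The highest called genes with at least 3 probes, taking at most 1 from a 1-Mb bin, were mostly proximal. C6, a complement protein made in liver, had 1.34, 1.24, 1.82 and 1.40 on replicates 1 to 4, a mean of 1.45 ± 0.25 (limma adjusted p = 0.000725). Its 3 probes averaged 2.75, 0.11 and 1.48, the first of them not well above background in the pool on any array, so that its ratio is only a bound. With only probes well above background in both channels the mean of C6 was 0.78. Ghr, the growth hormone receptor, had 0.62 ± 0.09 over 3 probes that averaged 0.73, 0.88 and 0.26 (limma adjusted p = 0.00169). The next were Pgcp, listed by RefSeq as Cpq and encoding a carboxypeptidase, at 0.34 ± 0.12, and Ptk2, focal adhesion kinase, at 0.33 ± 0.10. The 4 probes of Ptk2 lie just before the border and averaged from -0.46 to 0.97. Tg, thyroglobulin, had 0.30 ± 0.10, 2410089E03Rik, listed as Cplane1, 0.28 ± 0.12, Agxt2, a mitochondrial aminotransferase, 0.28 ± 0.16 and AK084059 0.28 ± 0.10. Of these 10 genes only Kif21a, a kinesin, at 0.32 ± 0.12 and Cbx5, heterochromatin protein 1 alpha, at 0.29 ± 0.11 were distal. In 7 of the 10 the probe means lay on both sides of 0. With normexp background correction Pgcp, Ptk2, Kif21a, Tg, Cbx5, 2410089E03Rik and Agxt2 had 0.14 to 0.23 and were no longer called, and Ghr had 0.38. AK084059, at 0.23, and Agxt2, at 0.22, lost their calls after the regional GC correction, and Ptk2, at 0.24, with only probes well above background.

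The lowest called genes with at least 3 probes, taking at most 1 from a 1-Mb bin, were all distal. Bai1, listed as Adgrb1 and encoding an adhesion receptor, had -0.69, -0.72, -1.07 and -0.76 on replicates 1 to 4, a mean of -0.81 ± 0.18 (limma adjusted p = 0.00162). Gpr84, a receptor of myeloid cells, had -0.81, -0.80, -0.69 and -0.61, a mean of -0.73 ± 0.09, and Aqp5, a water channel, -0.69 ± 0.12. All probes of these 3 genes averaged below 0. Bop1, a ribosome assembly factor, and Eppk1, a cytoskeletal linker, both had -0.60, with SDs of 0.15 and 0.23. Alg12, a mannosyltransferase, had -0.58 ± 0.19, Gpr20, an orphan receptor, -0.57 ± 0.09, Card10, a scaffold of NF-kB signalling, -0.51 ± 0.10, Ttll1, a tubulin glutamylase, -0.51 ± 0.12 and Galnt6, a glycosyltransferase, -0.50 ± 0.12. After the regional GC correction Bop1 moved to -0.26 and Bai1 to -0.59, while Gpr84 stayed at -0.65. Alg12, Eppk1 and Gpr20 each had 1 probe not well above background in the samples, whose ratio is only a bound. With only probes well above background in both channels Alg12 had -0.25, Eppk1 -0.36 and Gpr20 -0.66. With normexp they had -0.30, -0.25 and -0.34, and Eppk1 was no longer called. Card10 had -0.79 in the deposited log2 table.

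**Figure D4:**
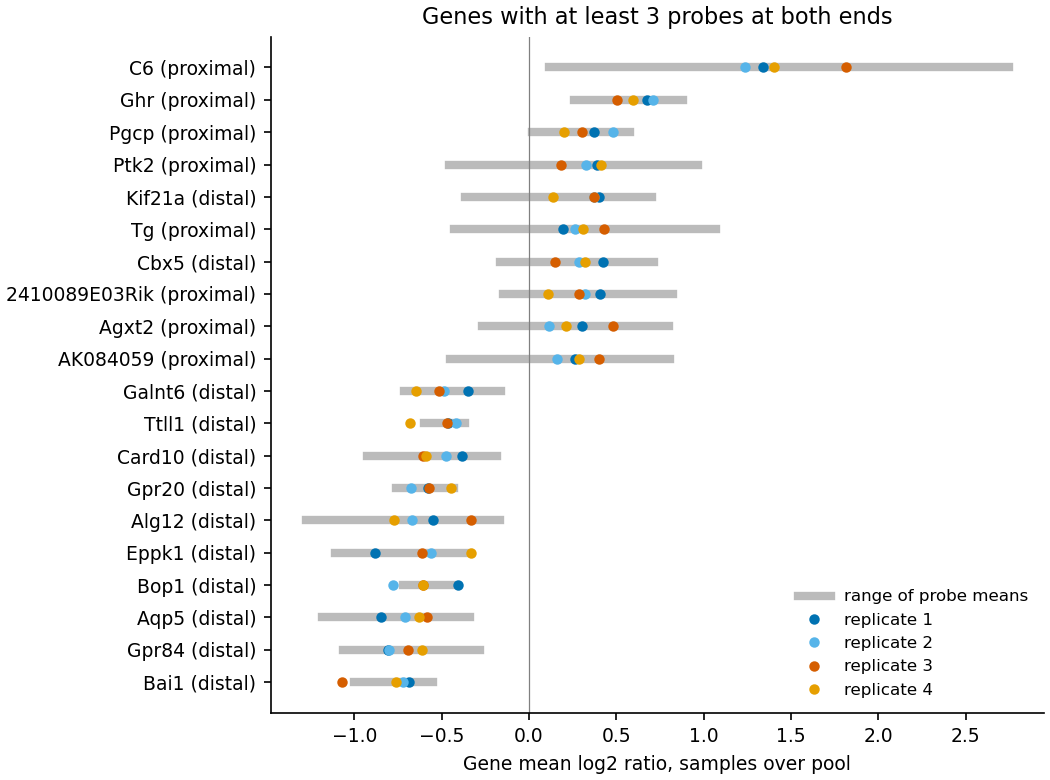
Mean log2 ratio of samples over pool for the 10 highest and 10 lowest called genes with at least 3 probes, at most 1 per 1-Mb bin; points are the 4 arrays and grey bars the range of the genes' probe means. The 10 lowest are all distal with probe means below 0, and 8 of the 10 highest are proximal.

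Gene groups of the proximal part were examined next, with each count to be read against the share of all autosomal genes called, 16.2% higher and 19.3% lower, and against the shares of the part. A list of genes near the start of the chromosome, mainly receptors and complement genes, held 13 measured genes. It also took in Prkaa1, Slc1a3, Rictor and Nipbl, which are neither. Of the 13 genes 3, or 23.1%, were called higher, against 13.5% of proximal genes, and none lower, with a median of 0.15. The 3 genes called higher were C6, Ghr and C9, a complement protein that forms membrane pores with C6. C9 had 1.47 ± 0.27 from 2 probes that averaged 0.08 and 2.86, the second being the proximal probe shown above. In the deposited log2 table C9 had 0.80. Prkaa1, a catalytic subunit of AMP-activated kinase, had 0.22 ± 0.14 and was not called. None of 4 measured cadherins of gene-poor stretches passed the threshold, with Cdh6 at 0.21 ± 0.11, Cdh18 at 0.17 ± 0.02, Cdh9 at 0.11 ± 0.42 and Cdh10 at 0.002 ± 0.22.

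Myc had -0.63, -0.56, -0.44 and -0.57 on replicates 1 to 4, a mean of -0.55 ± 0.08 (limma adjusted p = 0.00209). All 4 arrays were below 0, but Myc rests on a single probe. Among 10 measured genes at and around Myc, with Myc itself counted, 2, or 20%, were higher, against 13.5% of proximal genes. Of the same 10 genes 3, or 30%, were lower, Myc among them, against 14.6%, and the median was -0.03. Fam84b, listed as Lratd2, had 0.42 ± 0.11 from 1 probe and Mtss1, a membrane-shaping protein, 0.39 ± 0.15, while Sqle, an enzyme of cholesterol synthesis, had -0.38 ± 0.18. With normexp Mtss1 had 0.26.

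In the distal part, 7 of 10 measured Ly6 family genes, or 70%, were lower, against 39.2% of distal genes, and 1, or 10%, was higher, against 6.48%, with a median of -0.36 that moved to -0.12 after the regional GC correction. Slurp1, a secreted member, had -0.96 ± 0.16, Ly6e, a surface protein, -0.91 ± 0.28 and Lypd2 -0.80 ± 0.20, while Ly6k was higher at 0.57 ± 0.26. Each of these rests on 1 probe. After the regional GC correction Slurp1 had -0.48 and Lypd2 -0.32, and in the deposited log2 table Slurp1 had -1.53. Among 10 measured APOL, APOBEC and immune cell genes 4, or 40%, were lower, close to the 39.2% of all distal genes. None was higher, and the median was -0.31. Apobec3, a cytidine deaminase that restricts retroviruses, had -0.75 ± 0.26 and Csf2rb, a cytokine receptor chain, -0.42 ± 0.04, while Rac2 at -0.38 ± 0.40 and Apol8 at -0.35 ± 0.33 were not called. Csf2rb had -0.27 after the regional GC correction and -0.65 in the deposited log2 table.

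Of 14 measured genes of hepatocyte metabolism on the distal part 2, or 14.3%, were higher, against 6.48% of distal genes, and 2, or 14.3%, lower, against 39.2%, with a median of -0.01. Cyp2d9, a cytochrome P450 of male mouse liver, had 1.74, 1.51, 1.58 and 1.34, a mean of 1.54 ± 0.17 from its 1 probe, shown above (limma adjusted p = 0.000363). Dgat1, which completes triglycerides, had -0.007, 0.63, 0.43 and 0.38 on replicates 1 to 4, a mean of 0.36 ± 0.27 from 1 probe. Oplah, of the glutathione cycle, had -0.86 ± 0.11 and Tst, a mitochondrial sulfurtransferase, -0.56 ± 0.36. The call of Tst was lost with normexp (-0.15, adjusted p = 0.133), after the regional GC correction (-0.20, adjusted p = 0.274) and in the deposited log2 table (adjusted p = 0.0673), and the single probe failed the background limit in a channel of at least 1 array. Dgat1 lost its call with normexp, at 0.21, and Oplah had -0.50 after the regional GC correction. Cyp2d genes are close copies of each other, and the probe may take DNA from more than one of them.

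Of 20 measured genes of the type 2 keratin cluster, counted together with Krt18 of type 1, 6, or 30%, were lower, against 39.2% of distal genes. Another 2, or 10%, were higher, against 6.48%. The median of the 20 genes was -0.12, and 0.04 after the regional GC correction. Krt5, the keratin of basal epithelia, had -1.12, -1.08, -1.08 and -1.25, a mean of -1.13 ± 0.08 from 1 probe (limma adjusted p = 0.000393). Krt77 had -0.63 ± 0.15, Krt74 -0.58 ± 0.15 and Krt2 0.48 ± 0.30, each from 1 probe. Krt77 had -0.27 after the regional GC correction, Krt2 0.32 with normexp, and Krt5 -1.86 and Krt77 -0.95 in the deposited log2 table. Among 8 measured Hoxc genes, transcription factors of the body axis, 3, or 37.5%, were lower, close to the share of all distal genes, and none higher, with a median of -0.17. Hoxc4 had -0.70 ± 0.20, Hoxc12 -0.44 ± 0.06, Hoxc8 -0.39 ± 0.16 and Hoxc13, which was not called, 0.33 ± 0.27. With normexp Hoxc8 had -0.09 and was no longer called (adjusted p = 0.236), and the single probe failed the background limit in a channel of at least 1 array. After the regional GC correction Hoxc12 had -0.27.

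Among 10 measured alpha tubulin and neural genes 4, or 40%, were lower, close to the share of all distal genes, and none higher, with a median of -0.13. Tuba1b, a widely used tubulin, had -0.65 ± 0.26, Mapk8ip2, a kinase scaffold, -0.37 ± 0.26, Cntn1, a neural adhesion protein, -0.33 ± 0.23 and Sox10, a neural crest factor, -0.28 ± 0.14. After the regional GC correction Mapk8ip2, at -0.18 (adjusted p = 0.217), and Sox10, at -0.19 (adjusted p = 0.0965), were no longer called. Cntn1, with 3 of 6 probes not well above background in the samples, had -0.09 with normexp and lost its call (adjusted p = 0.2), and -0.50 in the deposited log2 table. A list of genes known to be gained or lost in cancer held 23 measured genes from both parts. Of these 6, or 26.1%, were lower and 2, or 8.70%, higher, with a median of -0.15. On the whole chromosome 30.5% of genes were lower and 8.98% higher. Its most extreme members were Acvrl1, a receptor of vessel formation, at -0.69 ± 0.11, Scrib, a polarity protein, at -0.60 ± 0.28, Puf60, a splicing factor, at -0.54 ± 0.10 and Hsf1, the heat shock factor, at -0.48 ± 0.22. All 4 are distal, and after the regional GC correction they stood at -0.34, -0.33, -0.22 and -0.31, and Scrib and Puf60 were no longer called. With normexp Hsf1 had -0.21 and was no longer called, and Scrib had -0.35.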

How the data were processed

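Spot intensities were deposited as Agilent's Feature Extraction software (10.10.1.1) gave them. Per the file headers they had been background-subtracted, detrended and linearly dye-normalised, and positions are on mm9. The deposited log10 ratio column served as a check and matched the ratios taken here on spots without surrogate values. A deposited table of log2 values of the same arrays, correlating at 0.91 to 0.92 with the same array's scanner ratio and at most 0.69 with another's, was used as an alternative. Its column medians were -0.04, 0.03, 0.05 and 0.01; its normalisation stays unknown, and its direction and scale were read from this comparison.

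Here log2 of processed Cy5 over Cy3 was taken, without control spots and outlier-flagged spots, repeated spots were averaged per probe, and the autosomal median of each array was set to 0, with no loess or quantile step. Part, bin and gene values were tested against 0 with limma 3.58.1 in R 4.3.3 (lmFit, eBayes, Benjamini-Hochberg over all autosomes), and the steps were tested on simulated data. Bins of 10, 5 and 1 Mb held at least 20, 10 and 5 probes. Base composition came from the probe sequences. Slides were read from array barcodes.

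The 30-Mb border, the members and the gene lists were chosen with earlier results of these data known. Named genes were the 10 highest and 10 lowest called genes that had 3 or more probes and the same sign throughout, with 1 allowed in a 1-Mb bin, then Myc, then up to 4 members of each list by absolute mean. Gene names are those of the array design. Of the 813, 594 matched a symbol and 63 a synonym in a RefSeq gene table (GRCm38.p6) that served for names only. Exon positions on mm9 were not used here. The number of arrays, 4, limits the precision.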

Additional observations from a re-analysis of the deposited data

Results flagged for a closer look

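Among 72 values of parts, bins and genes checked on the 4 arrays, 4 had 1 array whose gap to its nearest neighbour passed Dixon's 95% limit as a share of the whole range, and chance flags about 1 in 20 such groups. In the 10-Mb bin from 80 to 90 Mb the ratio of gap to range was 0.861, replicate 1 having -0.13 and the others -0.15 each. Kif21a, at a ratio of 0.886, had 0.14 on replicate 4 and 0.37 to 0.40 on the others. Mapk8ip2, at 0.881, had 0.01 on replicate 4 and -0.52 to -0.46 on the others. Mtss1, at 0.833, had 0.61 on replicate 3 and 0.30 to 0.35 on the others.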

How the results depend on the processing

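The distal median and the difference of the parts kept their direction and their call under all alternatives that were tested with limma. Leaving out 1 array gave -0.17 to -0.16 for the distal median, -0.19 to -0.18 for the difference and 0.014 to 0.028 for the proximal median. Distal minus proximal was -0.12, -0.14 and -0.21 in the classes of probe GC, -0.14 without a gene name, -0.080 within 1 range of regional GC and -0.094 within 1 range of density, with no test; a different set of probes is the construction of each. The proximal median lost its call with only probes well above background (0.016), centring without chromosome 15 (0.018), probe GC correction (0.0083), slide as a random block (0.021, adjusted p = 0.152) and slide means (0.021, adjusted p = 0.206). It turned to -0.0073 with mode centring, -0.0072 with the regional GC correction, -0.012 with density correction, and -0.048 and -0.026 with the last 20 and 25 Mb as the distal part; the cause was not tested. Lower bins numbered 32 at 1 Mb and 1 with a size limit of 0.15. Higher bins numbered 4 at 5 Mb, 12 at 1 Mb, 1 with mode centring, regional GC or density correction, and 0 with the size limit, though 2 had an adjusted p under 0.05 in limma without it. Over single arrays left out they were 4 to 4 lower and 2 to 3 higher. Genes called numbered 96 lower and 20 higher with a size limit of 0.5, 42 and 10 with at least 3 probes, 44 higher with slide means, and 199 to 208 lower and 54 to 57 higher with 1 array left out, against 248 and 73. The change of level lay at 73.475 Mb from the first slide, 72 Mb over 1-Mb medians and 20.65 Mb after the regional GC correction, which was added after seeing the data. Of 58 named genes, normexp ended the call of 13 and brought 2 others past the threshold, and the regional GC correction ended 7 and brought 1. Apol8 turned to 0.012 and 0.062 with probe and regional GC correction, Cdh6 to -0.0027 with only probes well above background, and Cdh10 to -0.076 with normexp, -0.017 with only probes well above background, -0.027 with mode centring, -0.0015 with centring without chromosome 15, -0.037, -0.070 and -0.056 with probe GC, regional GC and density correction, and -0.064 to 0.078 with 1 array left out; none of these was called in the report. No paired analysis was possible because the samples form 1 group.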
